A study of Mus musculus with 6 samples.

Results

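Cytosolic ribosomal protein genes encode the proteins that join ribosomal RNA to form the small and the large subunit of the ribosome in the cytoplasm. Members were chosen by symbol, as Rpl or Rps followed by a number and an optional letter or l, together with Rplp0, Rplp1, Rplp2 and Rpsa, and without the Rps6k kinase genes. A member needed a probe set annotated with that gene alone, and its brightest such probe set over the 6 arrays stood for it. Of 82 protein-coding genes in the RefSeq annotation that met the symbol rule, 45 had such a probe set, 29 had only probe sets annotated with other genes as well, and the others were not analysed here. Rps4l, which RefSeq lists as a transcribed pseudogene, also met the rule and made 46 members, out of 18193 genes on the array with a probe set of their own. An intensity filter, which asked for at least 3 of the 6 arrays above the array's 40th percentile, left 43 members (21 of the small and 22 of the large subunit) among 13222 genes tested.

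The arrays compared Sox2cKO with CTRL tumour epithelial cells from benign skin papillomas that had been induced with chemicals in mice. Sox2cKO mice carried K14CREER:SOX2fl/fl, in which the keratin 14 promoter drives a tamoxifen-activated Cre recombinase in basal keratinocytes and the floxed allele encodes Sox2, a DNA-binding factor active in stem cells. CTRL mice are labelled only as control mice, with no allele named, and mice of both groups had received tamoxifen for 1 week. Cells positive for Epcam and alpha6 integrin and negative for CD45, CD31 and CD140a were sorted, 100 ng of total RNA per sample was labelled, and 3 Affymetrix Mouse Genome 430 2.0 arrays were run per group, from 3 biological experiments. Mouse ages are not given in the sources used here.

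Each ribosome carries a single copy of almost every one of these proteins, and cells make them in matched amounts. Their messages are among the most abundant in a growing cell, and most begin with a terminal oligopyrimidine tract, a C followed by further C or T bases, through which mTOR signalling controls their translation. In the epidermis, basal keratinocytes are the dividing cells that need new ribosomes, and some ribosomal proteins that do not enter a ribosome can bind Mdm2 and raise p53.

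The start of the message is shown for Rps6, Rpl39 and Rpl12, which stood off the family's trend, for Rps10, whose groups did not overlap, and for Rpl35, Rps18, Rplp2 and the dim Rpl39l as further members with and without the tract. Each sequence runs 5′ to 3′ on the strand of the gene, from 20 bases before to 10 bases from the start annotated by RefSeq (GRCm38.p6), and capitals mark an unbroken run of C and T that begins with a C at that start. Members with the tract were the following.
Rps6: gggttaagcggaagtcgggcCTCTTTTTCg
Rpl35: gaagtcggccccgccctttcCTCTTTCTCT
Rps10: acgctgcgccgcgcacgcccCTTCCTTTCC
Rps18: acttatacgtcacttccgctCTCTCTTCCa
Rplp2: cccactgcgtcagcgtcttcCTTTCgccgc
Members without it at the annotated start were the following.
Rpl39: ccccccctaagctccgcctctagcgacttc
Rpl12: gcgtgggcggagcaggatccgtcttttcgg
Rpl39l: cctagctcccaggcctttccggatttccgg
The windows lie at chr4:86857358-86857387 (Rps6, minus strand), chr2:39005122-39005151 (Rpl35, minus), chr17:27635235-27635264 (Rps10, minus), chr17:33955656-33955685 (Rps18, minus), chr7:141447631-141447660 (Rplp2, plus), chrX:37085213-37085242 (Rpl39, minus), chr2:32961692-32961721 (Rpl12, plus) and chr16:10170208-10170237 (Rpl39l, plus).

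A tract of C and at least 4 further C or T bases stood at the annotated start in 8 of 44 windows (18.2%) of the 37 tested members with a RefSeq window, against 823 of 32851 (2.51%) of all windows. In the 300 bases around the start (250 before and 50 after), the letters CCGGAAG, the core recognised by ETS factors, occurred on either strand in 19 of the 44 windows (43.2%), against 8.86% of all windows. The letters CATTGTT, a core recognised by Sox factors, occurred on either strand in 0 of the 44 windows (0.0%), against 3.78% of all windows. These are matches of letters in a fixed window around an annotated start, which can differ from the start used in these cells. Overlap between the motifs was not counted.

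As a family, the ribosomal protein genes read nearly the same in Sox2cKO and CTRL cells. The median difference over the 43 tested members was -0.01 (Sox2cKO minus CTRL, log2 scale), with quartiles of -0.05 and 0.01, and 37 members (86.0%) differed by less than 0.1. Over all 13222 genes the median was 0.00, with quartiles of -0.10 and 0.10, and 50.2% differed by less than 0.1. The family level of each array, the median over members of the value minus the member's own mean, was -0.01, 0.02 and -0.02 in the Sox2cKO arrays, against 0.02, 0.02 and -0.02 in the CTRL arrays. The groups overlapped on this level, and its SD within groups was 0.022. Rps6 was the member that stood furthest above the others, at 0.55, and Rpl39 the furthest below, at -0.51.

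No member passed the test. With limma and Benjamini-Hochberg adjustment over all genes, 0 members had an adjusted p under 0.05, where 0 of 13222 genes (0.0%) passed. At an unadjusted p under 0.05 there was 1 member, Rps6, and 354 genes in all (2.68%). The 3 Sox2cKO values lay all above or all below the 3 CTRL values in 4 of the 43 members (9.3%), against 773 of all genes (5.85%). Those members were Rps6 and Rps4x, higher (361 of all genes, 2.73%), and Rps10 and Rps26, lower (412 of all genes, 3.12%). Set against the median value of the members in each array, Rps6, Rps4x and Rpl7 had groups apart, all higher. Rps10 and Rps26 then overlapped. The median of the mouse probe sets was nearly equal across arrays (5.43 in Sox2cKO, 5.42 to 5.46 in CTRL), though the normalization is not given. On values brought to a common scale, a change shared by most transcripts would not be seen. In bulk RNA, fewer cells of a type and less RNA per cell cannot be told apart.

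**Figure D1:**
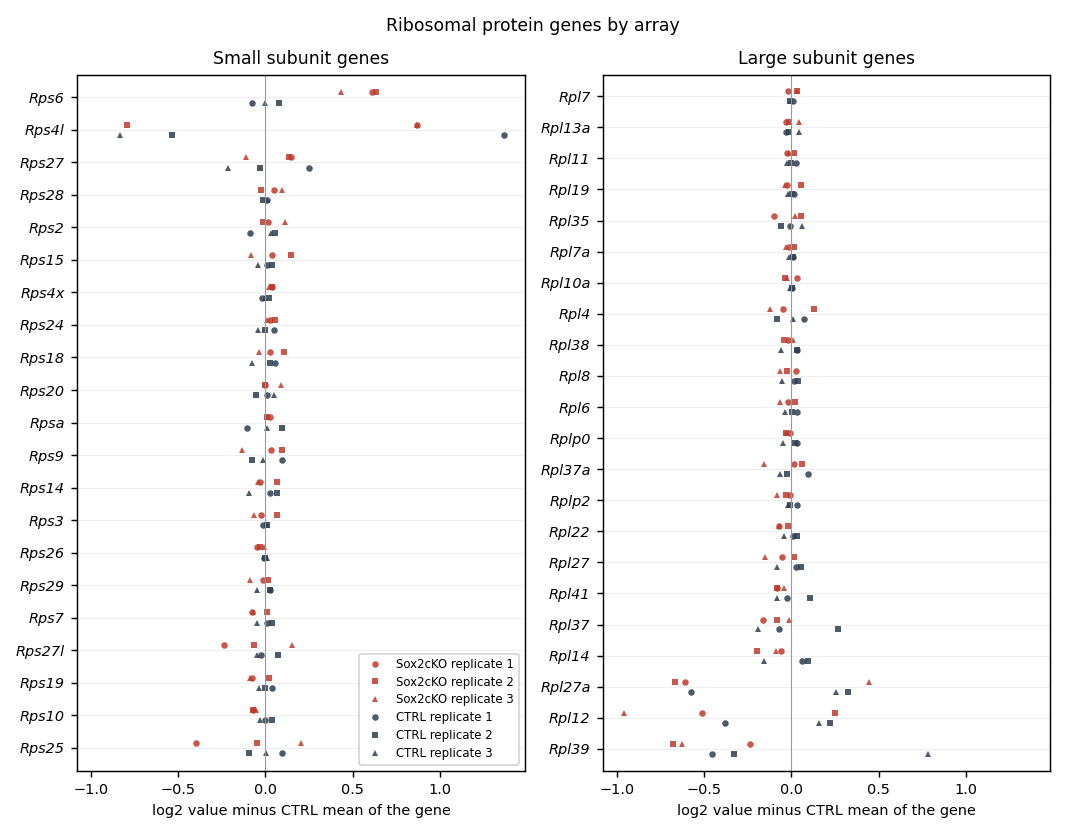
Each point is one array's log2 value of a tested ribosomal protein gene minus the CTRL mean of that gene (horizontal axis), for 21 small subunit genes (left) and 22 large subunit genes (right), ordered by the difference between groups; red marks the 3 Sox2cKO and dark blue the 3 CTRL arrays. Most genes form a narrow column around 0, while Rps6, Rps4l, Rpl27a, Rpl12 and Rpl39 spread beyond it, and the red and blue points are separate for Rps6 at a difference of 0.55.

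The spread between replicate arrays was small for these genes. The median SD within groups was 0.051 over the 43 members, against 0.192 over all genes, and 31 members had an SD under 0.10. Among the 30 members with a mean above 13, near the top of the scale (the highest value of an array was 14.29 to 14.35 in Sox2cKO and 14.35 to 14.44 in CTRL), differences ran from -0.07 to 0.04 with a median SD of 0.043. The 28 other genes with a mean above 13 differed by -0.12 to 0.33 with a median SD of 0.094. Whether values this close to the highest understate differences was not tested.

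Small subunit genes were close to 0. Of the 21 tested, 12 were above and 9 below 0, with a median of 0.01 and a range from -0.08 to 0.55. Rps4x, the X-linked gene of a core small subunit protein, read 13.59, 13.59 and 13.57 in Sox2cKO cells, against 13.53, 13.57 and 13.55 in CTRL cells. Its Sox2cKO values all lay above its CTRL values only beyond the printed digits, and the difference of 0.03 was below its standard error of 0.10. Rps10, which sits on the head of the small subunit and is mutated in some people with Diamond-Blackfan anaemia, read 13.31, 13.31 and 13.33 in Sox2cKO cells, against 13.38, 13.42 and 13.35 in CTRL cells. Its groups did not overlap, and the difference was -0.07 (SE 0.11). The other tested single-gene probe sets of Rps10 differed by -0.38 to 0.01, all with overlapping groups. Rps26, which lines the exit of the mRNA channel, read 13.23, 13.25 and 13.27 in Sox2cKO cells, against 13.27, 13.28 and 13.29 in CTRL cells. The difference was -0.03 (SE 0.10), and the groups of Rps26 too were apart only beyond the printed digits. After Rps6, Rps4l and Rps27, the highest were Rps28, Rps2 and Rps15, at 0.04, 0.04 and 0.03, and Rps25 was the lowest, at -0.08, and in each of these 4 genes the groups overlapped. Rpsa, a small subunit protein also described as a laminin receptor, read 13.46, 13.44 and 13.44 in Sox2cKO cells, against 13.33, 13.53 and 13.44 in CTRL cells (0.01, SE 0.11).

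Most large subunit genes lay below 0 by less than their standard errors. Of the 22 tested, Rpl7 alone was above 0 (0.01, SE 0.10) and 21 were below, with a median of -0.02 and a range from -0.51 to 0.01. Rpl39 and Rpl12, described with the members off the trend, were below by more than their standard errors. All members were read from the same 6 arrays, so their signs are not independent of each other, and the difference between the subunits was not tested. The groups overlapped in all 22. Rpl11, a protein that with Rpl5 can bind Mdm2, read 13.11, 13.15 and 13.12 in Sox2cKO cells, against 13.16, 13.13 and 13.11 in CTRL cells, a difference of 0.00 (SE 0.11). Rplp0 and Rplp2 form the stalk that recruits elongation factors. Rplp0 read 13.65, 13.63 and 13.63 in Sox2cKO cells, against 13.69, 13.68 and 13.61 in CTRL cells (-0.02, SE 0.11). Rplp2 read 13.75, 13.73 and 13.68 in Sox2cKO cells, against 13.79, 13.75 and 13.74 in CTRL cells (-0.04, SE 0.11). The third stalk gene, Rplp1, had only a probe set shared with another symbol, which read 13.79, 13.77 and 13.77 in Sox2cKO cells, against 13.79, 13.81 and 13.76 in CTRL cells (-0.01). Rpl14 and Rpl37, large subunit proteins, stood at -0.11 and -0.09, and their groups overlapped.

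Rps6 encodes the small subunit protein that the S6 kinases phosphorylate downstream of mTOR, and it was named in the choice of members with its difference known. Its probe set 1416142_at read 9.68, 9.70 and 9.50 in Sox2cKO cells, against 8.99, 9.15 and 9.07 in CTRL cells. Every Sox2cKO array lay above every CTRL array, and the gap was wider than the spread within either group. The means were 9.63 ± 0.11 in Sox2cKO and 9.07 ± 0.08 in CTRL (SD, n = 3 each), a difference of 0.55 (SE 0.12) or 1.47-fold. The limma adjusted p was 0.999 over all genes, from an unadjusted p of 0.00217, and the exact two-sided permutation test gave 0.1, the smallest p that 3 arrays against 3 allow. Set against the median value of the members in each array, the difference was 0.58 (SE 0.12).

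The other probe sets of Rps6 did not all give that difference. The second probe set annotated with Rps6 alone, 1453466_at, did not pass the intensity filter and read 4.71, 4.82 and 4.51 in Sox2cKO cells, against 4.14, 4.03 and 4.08 in CTRL cells. Its groups did not overlap either, with a difference of 0.60. A further 9 probe sets are annotated with both Rps6 and its pseudogene Rps6-ps4, and 8 of them had a mean above 10. Those 8 differed by -0.02 to 0.01, and the groups overlapped in all 8. The brightest, 1416141_a_at, read 13.85, 13.80 and 13.69 in Sox2cKO cells, against 13.83, 13.76 and 13.81 in CTRL cells, a difference of -0.02 (SE 0.11). The dim ninth, 1435962_at, read 4.74, 4.90 and 5.04 in Sox2cKO cells, against 4.51, 4.61 and 4.94 in CTRL cells (0.21), with overlapping groups. Within an array, 1416142_at minus 1416141_a_at was -4.17, -4.11 and -4.19 in Sox2cKO cells, against -4.84, -4.61 and -4.73 in CTRL cells. These within-array values did not overlap between the groups and differed by 0.57 (exact two-sided permutation p = 0.1, the smallest possible with 3 arrays against 3). Because 1416141_a_at itself differed by only -0.02, they restate the known difference of 1416142_at and add no separate support. Where each probe set lies on the Rps6 message was not analysed here.

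**Figure D2:**
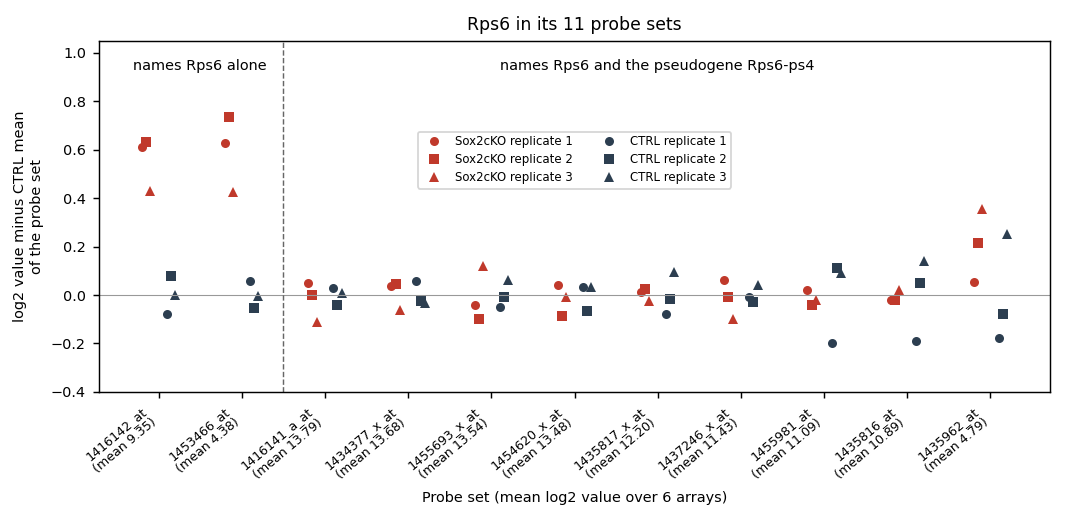
Log2 value minus the CTRL mean of the same probe set (vertical axis) for the 11 Rps6 probe sets, with 3 Sox2cKO arrays in red and 3 CTRL arrays in dark blue; the dashed line divides probe sets annotated with Rps6 alone (left) from those shared with Rps6-ps4 (right). The Sox2cKO points stand clear of the CTRL points in the 2 probe sets on the left (0.55 and 0.60) and overlap them in the 9 on the right.

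A member was called off the family's trend where its difference lay more than 3 scaled median absolute deviations (each 0.05) from the family median, below -0.16 or above 0.14. This chose Rps6 and 4 others from their own values, Rps4l above and Rpl27a, Rpl12 and Rpl39 below, and left 38 members on the trend. Just inside the limit was Rpl14 at -0.11, and just outside was Rpl27a at -0.28. Rps6 lay 11.3 of these deviations from the median. The rule took no account of brightness. All members it chose had a mean below 10 over the 6 arrays (Rps6 9.35, Rpl12 8.39, Rpl27a 8.2, Rps4l 6.94 and Rpl39 6.73). The 30 members with a mean above 13 ran only from -0.07 to 0.04. The 4 others off the trend differed from Rps6 in that their replicates spread widely and their groups overlapped.

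Rpl39, an X-linked gene for a small protein of the exit tunnel, read 6.75, 6.31 and 6.36 in Sox2cKO cells, against 6.53, 6.66 and 7.77 in CTRL cells on 1423032_at. The difference of -0.51 (SE 0.33) was carried by CTRL replicate 3. Without that array it was -0.12, and the bright Rpl39 probe set shared with another symbol gave 0.01. Rpl12, a protein at the base of the stalk, read 8.08, 8.84 and 7.63 in Sox2cKO cells, against 8.21, 8.81 and 8.75 in CTRL cells (-0.41, SE 0.32). It was -0.74 without Sox2cKO replicate 2 and -0.13 without Sox2cKO replicate 3, and its 2 bright shared probe sets both gave -0.04. Rpl27a, a large subunit protein, read 7.73, 7.67 and 8.78 in Sox2cKO cells, against 7.76, 8.66 and 8.59 in CTRL cells (-0.28, SE 0.36). It ran from -0.64 without Sox2cKO replicate 3 to -0.08 without Sox2cKO replicate 2, and its bright shared probe set gave -0.07. With the sex pattern of the arrays as a covariate, Rpl39 was -0.06, Rpl12 -0.03 and Rpl27a 0.30. In each of these 3 genes the single-gene and the bright shared probe sets gave unequal differences, with overlapping groups on both. Their single-gene standard errors were 0.33, 0.32 and 0.36, against 0.12 in Rps6, whose single-gene groups were apart.

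**Figure D3:**
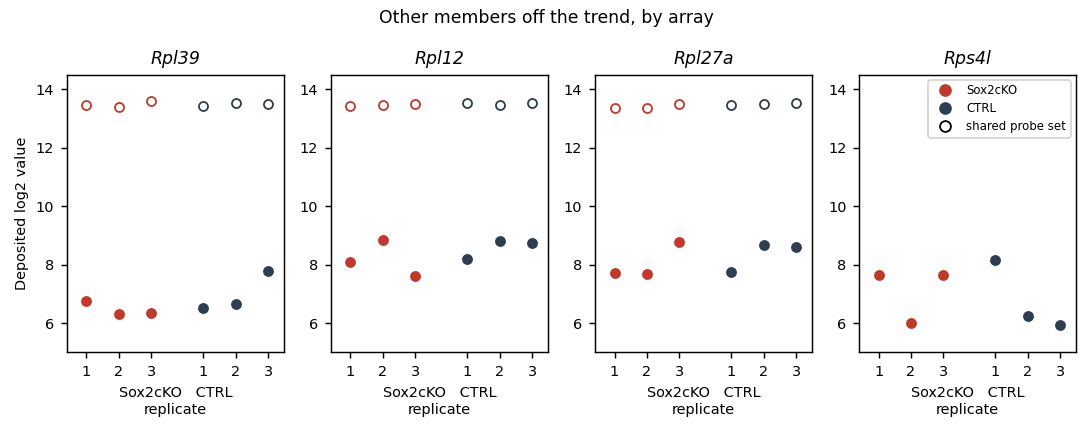
Deposited log2 values (vertical axis) of Rpl39, Rpl12, Rpl27a and Rps4l in the 3 Sox2cKO arrays (red, left) and the 3 CTRL arrays (dark blue, right); filled points are the single-gene probe sets and open points a bright probe set shared with other symbols, which Rps4l lacks here. The filled points scatter and overlap between the groups, with CTRL replicate 3 of Rpl39 at 7.77 above the rest of its panel's filled points, while the open points form a level row.

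Paralogs gave no difference beyond their spread. Rps4l, the autosomal copy of Rps4x, read 7.65, 5.99 and 7.65 in Sox2cKO cells, against 8.15, 6.25 and 5.95 in CTRL cells (0.31, SE 0.66). Both groups held high and low arrays, and the value was -0.11 without CTRL replicate 3 and -1.06 with the sex pattern of the arrays as a covariate. Xist and Y-linked Eif2s3y showed the female pattern in 0 of 3 Sox2cKO arrays and in 2 of 3 CTRL arrays (replicates 2 and 3). The covariate was set from Xist. Rps27l, a paralog known in human cells as a p53 target, read 11.99, 12.16 and 12.38 in Sox2cKO cells, against 12.20, 12.30 and 12.18 in CTRL cells (-0.05, SE 0.14). Its partner Rps27 read 9.77, 9.76 and 9.51 in Sox2cKO cells, against 9.87, 9.59 and 9.41 in CTRL cells (0.06, SE 0.16).

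The 3 members that did not pass the intensity filter were Rpl39l, the paralog of Rpl39 known from testis, Rpl3l, the paralog of Rpl3 known from striated muscle, and Rps16. Rpl39l read 4.36, 4.97 and 5.09 in Sox2cKO cells, against 4.55, 4.75 and 4.20 in CTRL cells, with overlapping groups. Rpl3l read 3.91, 4.25 and 4.26 in Sox2cKO cells, against 4.09, 4.0 and 4.14 in CTRL cells. Rps16, a core small subunit gene, was dim on its single-gene probe set, at 3.53, 3.76 and 3.65 in Sox2cKO cells, against 3.71, 3.50 and 3.93 in CTRL cells. A probe set annotated with Rps16 and other symbols read 13.92, 13.96 and 14.04 in Sox2cKO cells, against 13.96, 14.00 and 14.06 in CTRL cells (-0.03).

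Most genes read from shared probe sets were also close to 0. Counting probe sets that name 1 ribosomal protein gene and otherwise pseudogene-like symbols, or for Rpl32 and Rpl36a the paralog symbols Rpl32l and Rpl36al, added 27 genes, among them Rps16, with differences from -0.16 to 0.06 and a median of -0.03, and 26 of them differed by less than 0.1. Rpl26, a large subunit protein that in human cells binds the p53 message, had the lowest value. It read 13.66, 13.52 and 13.61 in Sox2cKO cells, against 13.79, 13.75 and 13.74 in CTRL cells (-0.16, SE 0.11), with no overlap. A second bright Rpl26 probe set with the same symbols gave 0.00 with overlap. The brightest probe sets of Rpl23 (-0.06), Rps13 (-0.05) and Rpl31 (0.06) also had no overlap, while the other tested Rpl23 probe sets gave -0.02, -0.01 and 0.06 with overlap. In that fit 7 of 70 members had groups apart, against 5.86% of genes, and 0 passed the limma threshold with Benjamini-Hochberg adjustment or had an unadjusted p under 0.05. Because signal from the other gene named cannot be separated on these probe sets, their values are uncertain.

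Brightness of the probe set went with the size of the differences. The 65 tested single-gene probe sets with a mean above 12 differed by -0.09 to 0.19 with a median within-group SD of 0.059. The 6 with a mean between 10 and 12 differed by -0.09 to 0.12 (SD 0.124), and the 21 with a mean up to 10 differed by -0.51 to 0.55 (SD 0.30). With every tested probe set taken on its own, 3 of the 92 had all Sox2cKO values above and 2 all below the CTRL values, against 6.33% of all tested probe sets in either direction. Of 20 genes with several tested probe sets, 11 had probe sets of both signs and 6 spanned more than 0.2, of which Rps24 (0.54) and Rps18 (0.52) spanned most. For Rps24, a small subunit gene with several splice forms, 1455195_at read 7.68, 7.93 and 6.91 in Sox2cKO cells, against 7.81, 8.17 and 8.02 in CTRL cells (-0.49), while its brightest probe set gave 0.03. For Rps18, 1421837_at read 6.37, 6.39 and 6.39 in Sox2cKO cells, against 6.18, 6.20 and 6.23 in CTRL cells. This Rps18 probe set had groups apart (0.18, SE 0.11, limma unadjusted p = 0.141), while the brightest gave 0.03 with overlap. Among the 54 single-gene probe sets that did not stand for their gene, 1421837_at and the dim Rps6 probe set alone had Sox2cKO values all above CTRL. That count of 2 was close to the share over all mouse probe sets, 3.34%.

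Genes that work with the ribosomal proteins were described from lists, and 0 genes passed the limma threshold with Benjamini-Hochberg adjustment in any of them, with 0 at an unadjusted p under 0.05 in the fit without the block. Mitochondrial ribosomal protein genes, whose products form the separate ribosome of mitochondria, had 13 of 76 above and 63 below 0, with a median of -0.08, a range from -0.24 to 0.35, and 3.95% with groups apart. Translation factors and other genes with oligopyrimidine-tract messages had 14 of 22 above and 8 below 0, with a median of 0.01. In 13.6% of them, against 5.85% of all genes, the groups were apart, higher for Hnrnpa1 and Eef1b2 (0.08) and lower for Eif3f (-0.07). Hnrnpa1, an RNA-binding protein, read 10.80, 10.79 and 10.78 in Sox2cKO cells, against 10.60, 10.67 and 10.68 in CTRL cells (0.14, SE 0.11), with no overlap. Pabpc1, the poly(A)-binding protein, stood at 0.13 (SE 0.12), and Vim, an intermediate filament gene of mesenchymal cells, at 0.50 (SE 0.44). Fau, which encodes a ubiquitin-like protein fused to a small subunit protein, stood at 0.00.

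Ribosome assembly genes were centred near 0 as well. The 48 rRNA processing factors had a median of -0.02, with 20 above and 28 below 0. Groups were apart in 4.17% of them, against 5.85% of all genes. Riok2, a kinase of late small subunit maturation, read 7.78, 8.43 and 8.64 in Sox2cKO cells, against 8.48, 8.93 and 8.96 in CTRL cells (-0.51, SE 0.25), with overlap. Within same-numbered arrays its differences were -0.70, -0.50 and -0.32. Gar1, of the box H/ACA particles that pseudouridylate rRNA, read 10.75, 10.70 and 10.77 in Sox2cKO cells, against 10.88, 10.97 and 10.86 in CTRL cells (-0.16, SE 0.11), with no overlap. The 17 genes of RNA polymerase I and its factors had a median of -0.02, with 7 above and 10 below 0. The initiation factor gene Taf1a stood at -0.20 and alone had groups apart (5.88% of the list, near the share over all genes).

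The S6 kinase list named 10 genes that phosphorylate the Rps6 protein or belong to that kinase family. Of these, 6 were tested, with Rps6kb2 among them but not Rps6kb1. In the 6, 1 was above and 5 were below 0, with a median of -0.03. Rps6kl1 stood at -0.23 (SE 0.13), Rps6ka6 at -0.32 (SE 0.20) and Rps6kb2 at 0.16 (SE 0.32). Of the 6, only Rps6kl1 had groups apart (16.7%, against 5.85% of all genes). The mTOR pathway and Myc list had 10 of 17 above and 7 below 0, with a median of 0.01, and Rptor, the mTORC1 scaffold, stood at 0.15. The nucleolar stress and p53 list had 6 of 9 above and 3 below 0, with a median of 0.03, and its genes Mdm2 (0.71), Cdkn1a (0.40) and Zmat3 (0.29) had overlapping groups. Within same-numbered arrays Mdm2, which encodes the ubiquitin ligase of p53, differed by 0.62, 0.48 and 1.03, and Cdkn1a, a p53 target that inhibits the cell cycle, by 0.37, 0.30 and 0.51. Zmat3 differed by -0.39, 0.65 and 0.62. These 3 genes had been named for the smallest p of their list. Phlda3, of the same list, differed by -0.32, -0.05 and -0.07. Its remaining genes, Ccng1, Sesn1, Gtse1, Bbc3 and Pmaip1, each had pairs of both signs. In the limma fit blocked on replicate number, the unadjusted p was 0.00428 for Mdm2, 0.0143 for Cdkn1a and 0.00853 for Riok2. The adjusted p was 0.852, 0.884 and 0.884. Low values in that limma fit were not particular to these genes. The unadjusted p was 0.00412 for Rps6, and 0.000393 and 0.00311 for the sebocyte markers Far2 and Elovl3, both lower in Sox2cKO. Their adjusted p was 0.852, 0.572 and 0.852.

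**Figure D4:**
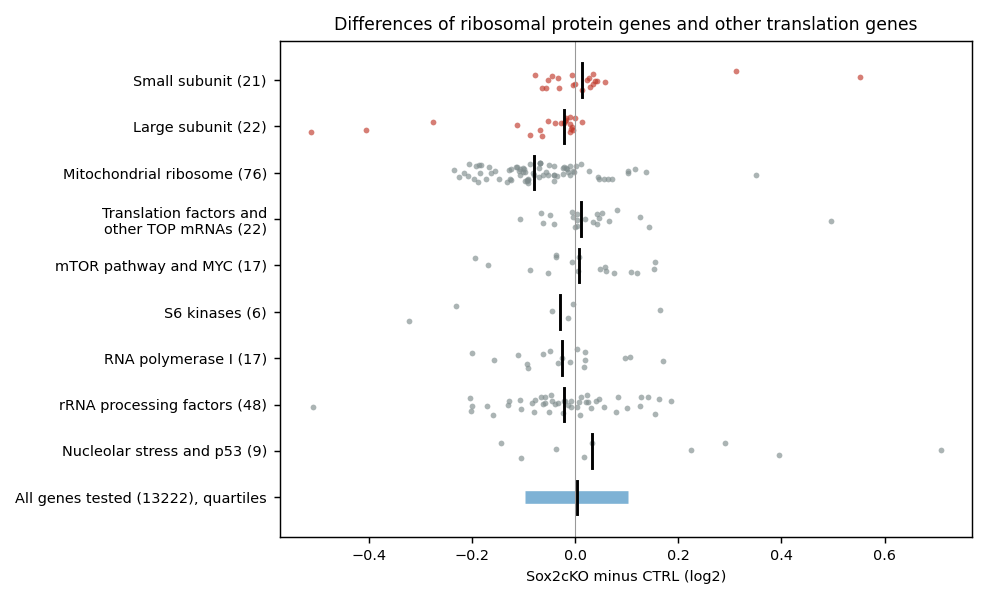
Difference between groups (Sox2cKO minus CTRL, log2, horizontal axis) of each tested gene in a list, one point per gene with the number of genes in brackets; black bars mark medians, and the blue band spans the quartiles of all 13222 genes tested, -0.10 and 0.10. Small and large subunit genes (red) crowd near their medians of 0.01 and -0.02 with Rps6 apart at 0.55, and the mitochondrial ribosomal protein genes centre at -0.08.

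Sox2, the targeted gene, read 4.07, 4.63 and 3.23 in Sox2cKO cells, against 7.19, 8.31 and 8.18 in CTRL cells, without overlap (limma adjusted p = 0.316). The position of its probe set relative to the floxed segment was not analysed here, so a low reading does not by itself check the deletion. The basal keratinocyte markers (6 of 6 tested) had summed log2 levels of 73.3 to 74.01 in Sox2cKO and 73.34 to 73.75 in CTRL, and Krt14 averaged 14.10 ± 0.05 in Sox2cKO and 14.04 ± 0.10 in CTRL (SD, n = 3 each). The 2 epithelium markers went opposite ways. Epcam averaged 10.85 in Sox2cKO and 11.31 in CTRL, and Cdh1 averaged 11.67 in Sox2cKO and 11.46 in CTRL. Fibroblast and pericyte markers, which the sort on CD140a should exclude in part, had higher means in Sox2cKO in 7 of 7 genes, with summed log2 levels of 56.29 to 69.28 in Sox2cKO and 49.0 to 56.1 in CTRL. Pdgfra, which encodes CD140a, read 5.49, 6.21 and 7.25 in Sox2cKO cells, against 5.52, 5.32 and 5.05 in CTRL cells. Leukocyte markers (5 of 6 tested) summed to 30.34 to 31.56 in Sox2cKO and 29.56 to 30.2 in CTRL. The groups were narrowly apart on both sums. Suprabasal keratinocyte markers had higher means in Sox2cKO in 6 of 6 genes, with overlapping sums of 63.82 to 67.23 in Sox2cKO and 62.3 to 66.52 in CTRL. Sebocyte markers (3 of 4 tested) had lower means in 3 of 3 genes, with overlapping sums of 13.37 to 18.45 in Sox2cKO and 16.93 to 23.06 in CTRL. The part of these cell types in the Rps6 value was not tested. The 18S ribosomal RNA control averaged 10.96, 11.51 and 12.49 in Sox2cKO arrays, against 11.58, 11.14 and 11.77 in CTRL arrays, with overlap. The 3′ minus 5′ control of Gapdh was -0.03 to 0.14 in Sox2cKO and 0.00 to 0.12 in CTRL.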

How the data were processed

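The authors deposited 1 log2 value per probe set and array for Affymetrix Mouse Genome 430 2.0 arrays. The log2 scale was read from the range of the deposited values. R 2.14.0 is named per the submitters' processing notes, while background correction, summarising and normalization are not given in the sources used here. Precision is limited by the number of arrays, 3 in each group. Controls made up 64 of the 45101 probe sets. Of 45037 mouse probe sets, 34945 named 1 gene, 932 several and 9160 none, in GEO's platform annotation. The filter left 27462 probe sets and 13222 genes, each gene read from its brightest single-gene probe set.

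Sox2cKO minus CTRL was fitted on all genes with lmFit and eBayes of limma 3.58.1, run under R 4.3.3 (two-sided, Benjamini-Hochberg, threshold 0.05), tested on simulated data first. Single values also had an exact permutation test. Deviations of same-numbered replicates of the titles correlated at 0.288, 0.206 and 0.211, and of other pairs at -0.333 to 0.0636. The numbers were therefore taken to pair samples, and a fit with the number as a block was made. The labels do not say that a number marks an experiment, so this pairing rests on the same values that the block fit used. The members and lists were chosen with earlier results of these data known. Named genes were Rps6, members off the trend, the 6 highest and 6 lowest, members with groups apart, stalk genes, Rpsa, paralogs and their partners, members not passing the filter, and up to 3 genes of smallest p per list. Rpl11, Rpl7, Rpl35, Rps24, Eef1b2, Eif3f, Rpl26, Rpl23, Rps13 and Rpl31 and the further probe sets of Rps18 were added after their values were seen. So were Phlda3 and the remaining p53 list genes, and the further probe sets of Rps10. Sequences are from RefSeq, GRCm38.p6.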

Additional observations from a re-analysis of the deposited data

Results flagged for a closer look

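Further single-gene probe sets of ribosomal protein genes, which did not stand for their gene in the tests above, numbered 54. Of these, 2 had every Sox2cKO array above every CTRL array and 0 had every Sox2cKO array below. Over all mouse probe sets 3.34% had every Sox2cKO array above, a share close to that of the 2 in 54. One is the Rps18 probe set 1421837_at, with a difference of 0.18. The other is the Rps6 probe set 1453466_at, below the intensity filter, with a difference of 0.60.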

How the results depend on the processing

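No member passed the limma threshold with Benjamini-Hochberg adjustment in any of 22 alternatives. Rps6 stayed between 0.51 and 0.62 with 1 array left out (adjusted p 0.848 to 1.0), and with a replicate block it was 0.55 (adjusted p 0.852); the block changed no call. With probe sets shared with other symbols, an alternative chosen after seeing the data, Rps6 was -0.02. The family median was -0.04 to 0.00 with 1 array left out. Members with groups apart numbered 2 with array medians centred, with the mean of a gene's probe sets, with plain _at probe sets only and with quantile normalization. They numbered 7 of 70 with shared probe sets (5.86% of all genes) and 5 to 13 with 1 array left out. Of the latter, 13 came without CTRL replicate 3, 11 without Sox2cKO replicate 2, 8 without Sox2cKO replicate 1 and 7 without Sox2cKO replicate 3. Fewer arrays make separation easier. The share over all genes is not given for settings other than shared probe sets. Those counts therefore cannot be read as a result about the members. Over all genes, 1 passed with the sex pattern as a covariate and 0 to 5 with 1 array left out, 5 without CTRL replicate 1. With plain _at probe sets 12 of the 19 named members had a value. Of 315 further values of named members, 299 kept their sign and 16 did not. With shared probe sets these were Rpl37 0.01, Rpl39 0.01, Rps25 0.03 and Rps27 -0.02. With the sex covariate they were Rpl27a 0.30, Rps27 -0.19 and Rps4l -1.06. With the mean of probe sets it was Rps15 -0.01. With 1 array left out the ranges that crossed 0 were Rpl37 -0.19 to 0.05, Rps15 -0.02 to 0.09, Rps2 -0.01 to 0.07, Rps25 -0.22 to 0.08, Rps27 -0.05 to 0.18, Rps27l -0.15 to 0.04, Rps4l -0.11 to 1.00 and Rpsa -0.04 to 0.06. The cause was not tested.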
